A study of Mus musculus with 7 samples.

Results

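The 10 genes described here are those of extracellular adenosine and its ectonucleotidases, *Nt5e*, *Entpd1*, *Entpd2*, *Enpp1*, *Adora1*, *Adora2a*, *Adora2b*, *Ada*, *Adk* and *Slc29a1*, found by gene symbol among the 55228 rows of a read count table. All 10 had a row. The set was chosen by the measured *Nt5e* counts, which were much higher in the knockout, so that difference is given as a description with no test. The samples were primary ovarian granulosa cells, the hormone-making follicle cells around the oocyte, from C57BL/6J mice without treatment. There were 4 libraries from wild-type (WT) mice and 3 from mice labelled as *Fhl2* knockout (KO), a gene for a LIM-domain adaptor protein. The series text speaks of 5 samples, and 7 were analysed here. The labels give no age, and do not say which part of *Fhl2* was altered, whether the deletion was limited to a cell type, or whether each library stands for its own animal, so p-values measure only the spread between these libraries, which may in part be technical.

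ATP and ADP that leave a cell are broken down at the cell surface. CD39, the product of *Entpd1*, removes phosphates from ATP and ADP to give AMP, *Entpd2* encodes a relative that prefers ATP, and *Enpp1* encodes an enzyme that splits ATP into AMP and pyrophosphate. CD73, the product of *Nt5e*, then turns AMP into adenosine. Adenosine acts through receptors coupled to G proteins, of which the one from *Adora1* lowers cAMP and those from *Adora2a* and *Adora2b* raise it. The signal ends when the transporter ENT1 (*Slc29a1*) carries adenosine into cells, where adenosine kinase (*Adk*) turns it back into AMP and adenosine deaminase (*Ada*) into inosine. In granulosa cells cAMP is also the second messenger of the gonadotropin receptors.

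RefSeq promoter windows of the same build (GRCm38.p6), from 250 bases before to 50 bases after a gene's start, were found for 9 of the 10 genes. Those of *Nt5e* and *Enpp1* are shown because these were the members whose KO and WT libraries did not overlap. They lie on the plus strand at chr9:88327359-88327658 and on the minus strand at chr10:24712110-24712409. GENCODE M21 places the start of *Nt5e* further upstream, at 88327197. Capitals mark GGGCGG, the GC box letters, read on either strand:
Nt5e: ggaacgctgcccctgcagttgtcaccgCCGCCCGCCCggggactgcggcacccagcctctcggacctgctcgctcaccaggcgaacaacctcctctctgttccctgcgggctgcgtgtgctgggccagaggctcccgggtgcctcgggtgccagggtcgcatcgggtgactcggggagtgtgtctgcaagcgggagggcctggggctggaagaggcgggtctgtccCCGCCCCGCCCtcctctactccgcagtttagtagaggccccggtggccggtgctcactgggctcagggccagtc
Enpp1: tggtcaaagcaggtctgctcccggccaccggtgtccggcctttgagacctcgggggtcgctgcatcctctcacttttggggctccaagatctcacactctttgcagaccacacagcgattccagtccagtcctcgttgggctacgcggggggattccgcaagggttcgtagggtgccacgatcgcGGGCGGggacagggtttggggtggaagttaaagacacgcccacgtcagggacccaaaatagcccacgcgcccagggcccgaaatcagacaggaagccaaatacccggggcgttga
The *Nt5e* window held 4 such matches, starting at -223, -219, -24 and -19 from the RefSeq start, of which those at -223 and -219 overlap each other, as do those at -24 and -19. The *Enpp1* window held 1, at -65. Windows of the other members, of which some have several, held from 0 to 6 (*Adora2b*). Those with 0 were the windows of *Entpd1* and some of those of *Adora1* and *Slc29a1*. Of 32851 promoter windows, 35.7% held at least 1. The cAMP response element TGACGTCA, its core TGACG (20.8% of windows), the hypoxia response core ACGTG (19.6%), GGAATG of TEAD factors (14.7%), AAGGTCA of NR5A receptors (4.72%), TGANTCA of AP-1 (7.81%), GTAAACA of FOXO (3.65%) and TATAAA (13.6%) had no match in the *Nt5e* window. The full element occurred in 1.79% of windows. The *Enpp1* window held TGACG once, overlapping a match to ACGTG. A match in these letters is a description of the window and not a bound site.

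The 7 libraries held 38855596 to 50514556 counts, and a floor of 3 counts corresponds to 0.0598 to 0.0775 CPM per library (CPM is the count relative to library size, here with TMM scaling), for counting error only. *Fhl2* had 3910 to 5732 reads in the WT libraries and 1880 to 3132 in the KO libraries, so reads of the targeted gene remained. The granulosa markers *Foxl2*, *Fshr* and *Inha* were present in all libraries, whereas *Cyp19a1*, the aromatase gene, had 0 reads in each WT library and at most 17 in a KO library. The libraries differed in how counts depended on transcript length. The slope of log2 CPM on log2 length, after subtracting the average library, was 0.06 to 0.09 in WT, and -0.00, -0.17 and -0.13 in the KO libraries in order. Where a correction for length and GC content moved the value of a member markedly, the corrected value is given beside it.

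*Nt5e*, the gene of the enzyme that makes adenosine from AMP, was the member with the large difference. It had 164, 215, 238 and 231 reads in WT libraries 1 to 4 and 683, 910 and 764 reads in KO libraries 1 to 3. Scaled, this was 4.23, 4.28, 5.09 and 5.29 CPM in WT and 17.4, 19.4 and 16.8 CPM in KO. The groups were far apart, with the lowest KO library above the highest WT library, and the 3 KO libraries lay close together. The means were 4.72 ± 0.544 CPM (SD, n = 4) and 17.9 ± 1.37 CPM (SD, n = 3), a 3.78-fold difference (log2 fold change 1.92). By size this was the 34th highest value among 15798 genes tested. Corrected for length and GC the value was 2.05, and for KO library 1 alone against WT it was 1.88. Over all 20 alternative settings it lay between 1.86 and 2.10. The fit without WT library 4 stands among them under another name as well. Divided by exon length, *Nt5e* stood at the 21.7th percentile of the tested genes in WT and at the 39.5th in KO, below their middle on this measure. The exons cover 8602 bases and the longest transcript 3995, on which *Nt5e* in KO was at 4.47 rather than 2.08 CPM per kb. No percentile was taken with the longest transcript.

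**Figure D1:**
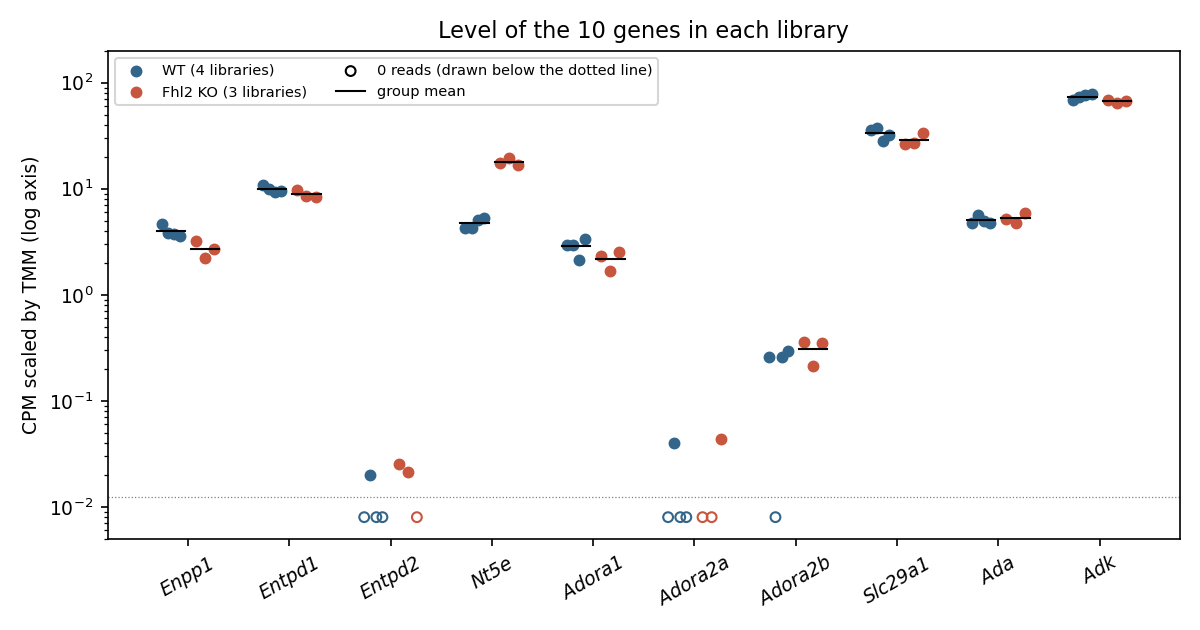
Level of each of the 10 genes in each library, in CPM scaled by TMM on a log axis, with WT in blue, KO in red and a line at the group mean where no library is at 0. *Nt5e* lies at 4.23 to 5.29 CPM in WT and 16.8 to 19.4 CPM in KO, and the groups also stand apart for *Enpp1*, lower in KO, while they overlap for the other members.

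Of the 7 other members tested, 1 passed an adjusted p of 0.05 in edgeR's quasi-likelihood test and 6 did not. Among all genes tested 29.0% passed (13.5% higher and 15.6% lower in KO). The whole set was proposed from this contrast, so nothing is read from that count. *Entpd2* and *Adora2a* were too low to be tested. The groups did not overlap for *Nt5e* and *Enpp1*, against 34.2% of all genes tested (16.4% with KO above WT, 17.7% with KO below). The median log2 fold change of the 8 members tested was -0.16, against 0.00 over all genes. In bulk RNA, fewer cells of a type and less RNA per cell cannot be told apart.

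Of the genes that act before CD73, *Entpd1* and *Enpp1* were tested, and neither was higher in KO. *Entpd1* had 10.8, 10.02, 9.37 and 9.50 CPM in WT libraries 1 to 4 and 9.74, 8.46 and 8.32 CPM in the KO libraries, with overlap between KO library 1 and the WT group. Its log2 fold change was -0.17 (SE 0.122, 95% interval -0.42 to 0.09, edgeR adjusted p = 0.320), and -0.02 after the length and GC correction (edgeR adjusted p = 0.910, range 0.159 to 0.951). *Entpd2* was close to absent, with 1 read in WT library 2, 1 in KO library 1, 1 in KO library 2 and 0 in the others. It shares exon sequence with *Npdc1* on the same strand, a gene with 51174 reads, and the counting rule for such reads is not given in the sources used here. *Enpp1*, whose product makes AMP directly from ATP, was at 4.62, 3.80, 3.76 and 3.62 CPM in WT and at 3.24, 2.22 and 2.68 CPM in KO. Each KO library was below each WT library, by a small margin between 3.24 and 3.62 CPM. The log2 fold change of *Enpp1* was -0.55 (SE 0.183, 95% interval -0.93 to -0.16, edgeR adjusted p = 0.0332). Leaving out any 1 of the 4 WT libraries ended the call (edgeR adjusted p from 0.0522 to 0.112), and so did leaving out KO library 2 (0.147) or 3 (0.106). It was also lost after the length and GC correction, where the value was -0.21 (edgeR adjusted p = 0.383), range 0.00982 to 0.577 over the settings tried.

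Ratios of reads within a library need no scaling for library size. The differing dependence on transcript length does not cancel in them where 2 genes differ in length, and they were not corrected for it. Those with *Nt5e* on top restate the difference that chose the set and are given as a description. *Nt5e* had 0.480 ± 0.0827 reads per *Entpd1* read in WT (SD, n = 4) and 2.03 ± 0.253 in KO (SD, n = 3). The WT libraries ran from 0.391 to 0.557 and the KO libraries from 1.79 to 2.29. Of the reads of *Nt5e*, *Entpd1* and *Enpp1* together, *Nt5e* held 25.5 ± 3.44% in WT and 60.7 ± 3.61% in KO. Per read of *Adk* there were 0.0638 ± 0.00428 *Nt5e* reads in WT and 0.268 ± 0.0285 in KO, and per read of *Ada* 0.946 ± 0.153 and 3.43 ± 0.598. The ratio of *Adk* to *Ada*, which leaves *Nt5e* out, was 14.7 ± 1.43 in WT and 12.7 ± 1.07 in KO, and its groups overlapped. Their longest transcripts have 4243 and 1688 bases, and their log2 fold changes after the length and GC correction were -0.07 and -0.13.

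**Figure D2:**
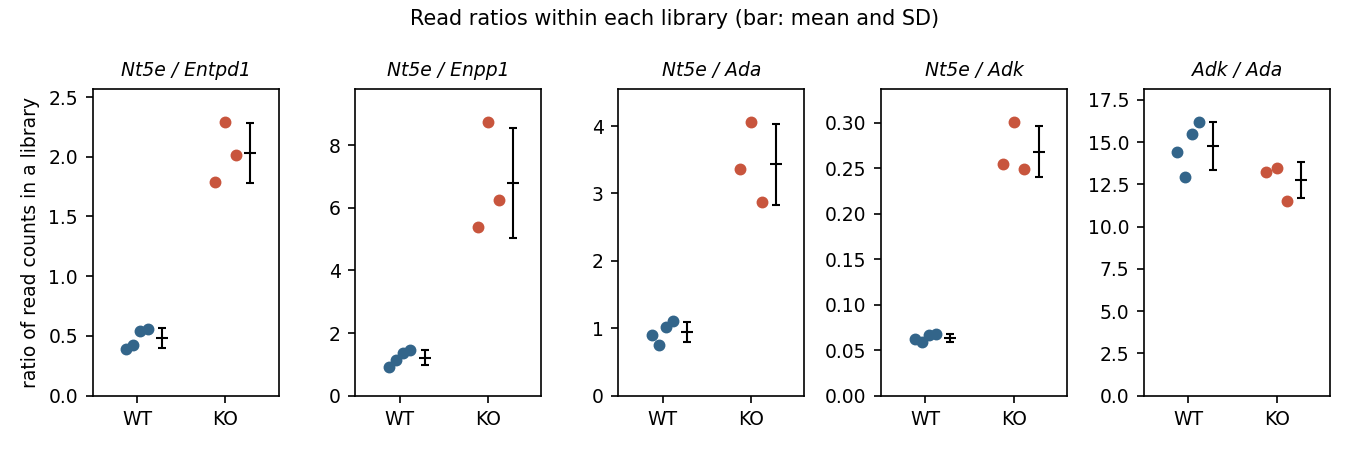
Ratios of read counts between 2 members within each library, for 4 WT (blue) and 3 KO libraries (red), with the mean and SD in black. Each ratio with *Nt5e* on top separates the groups (*Nt5e* per *Entpd1* at most 0.557 in WT and at least 1.79 in KO), while *Adk* per *Ada* overlaps.

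Among the adenosine receptors, *Adora1* was the most abundant per exon length in both groups. It had 2.97, 2.97, 2.14 and 3.39 CPM in WT and 2.32, 1.68 and 2.53 CPM in KO. WT library 3 lay inside the KO range, and the difference did not pass (log2 fold change -0.40, SE 0.215, 95% interval -0.85 to 0.05, edgeR adjusted p = 0.175), nor did it after the length and GC correction (-0.26, edgeR adjusted p = 0.374, range 0.0996 to 0.696). *Adora2b* was near the limit of detection, with 10, 0, 12 and 13 reads in WT and 14, 10 and 16 in KO. The library without a read was WT library 2, the deepest of the 7. The log2 fold change of 0.61 had a 95% interval of -0.83 to 2.05 (edgeR adjusted p = 0.539). Without WT library 2 it was 0.19 (SE 0.522, edgeR adjusted p = 0.828, range 0.268 to 0.828). *Adora2a* had 2 reads in WT library 2, 2 in KO library 3 and 0 elsewhere, all under the floor. *Adora3*, the remaining adenosine receptor gene, had at most 2 reads in any library. Divided by exon length, *Adora1* stood at 0.495 CPM per kb in WT and 0.376 in KO, and *Adora2b* at 0.110 and 0.166.

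Among the genes that remove adenosine, *Adk* and *Slc29a1* had the highest levels per exon length of the 10 in both groups. *Adk* had 68.1, 73.0, 76.9 and 77.5 CPM in WT and 68.4, 64.4 and 67.3 CPM in KO. The lowest WT library lay within the KO range. The log2 fold change was -0.15 (SE 0.0874, 95% interval -0.33 to 0.04, edgeR adjusted p = 0.216), and -0.07 after the length and GC correction (edgeR adjusted p = 0.563, range 0.162 to 0.809). *Ada* ran from 4.72 to 5.66 CPM in WT and from 4.77 to 5.84 in KO, with full overlap (0.06, SE 0.146, 95% interval -0.24 to 0.37, edgeR adjusted p = 0.783), and its sign turned under the length and GC correction (-0.13, edgeR adjusted p = 0.526, range 0.526 to 0.952). The transporter gene *Slc29a1* had 35.5, 37.1, 28.4 and 32.2 CPM in WT and 26.5, 27.1 and 33.2 CPM in KO. KO libraries 1 and 2 were below all WT libraries and KO library 3 was not, and the difference did not pass (-0.20, SE 0.113, 95% interval -0.44 to 0.04, edgeR adjusted p = 0.190). It passed after the length and GC correction (-0.36, edgeR adjusted p = 0.00870, range 0.00870 to 0.451 over its alternatives) and after the correction for length alone (-0.31, 0.0404).

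Divided by the exon length in GENCODE M21, the order of levels in WT was *Adk* (8.66 CPM per kb), *Slc29a1* (8.31), *Ada* (2.51), *Entpd1* (1.78), *Nt5e* (0.549), *Adora1* (0.495), *Enpp1* (0.385) and *Adora2b* (0.110), with *Adora2a* and *Entpd2* last. Neighbours in this order whose WT libraries overlapped were *Adk* and *Slc29a1*, *Nt5e* and *Adora1*, *Adora1* and *Enpp1*, *Adora2b* and *Adora2a*, and *Adora2a* and *Entpd2*. In KO the order differed in the place of *Nt5e*, which moved above *Entpd1* (2.08 against 1.58 CPM per kb, without overlap) and below *Ada* (2.63), and in *Entpd2* and *Adora2a*, both near 0. With the longest transcript in place of all exons, *Nt5e* in KO stood above *Ada* as well (4.47 against 3.12 CPM per kb).

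**Figure D3:**
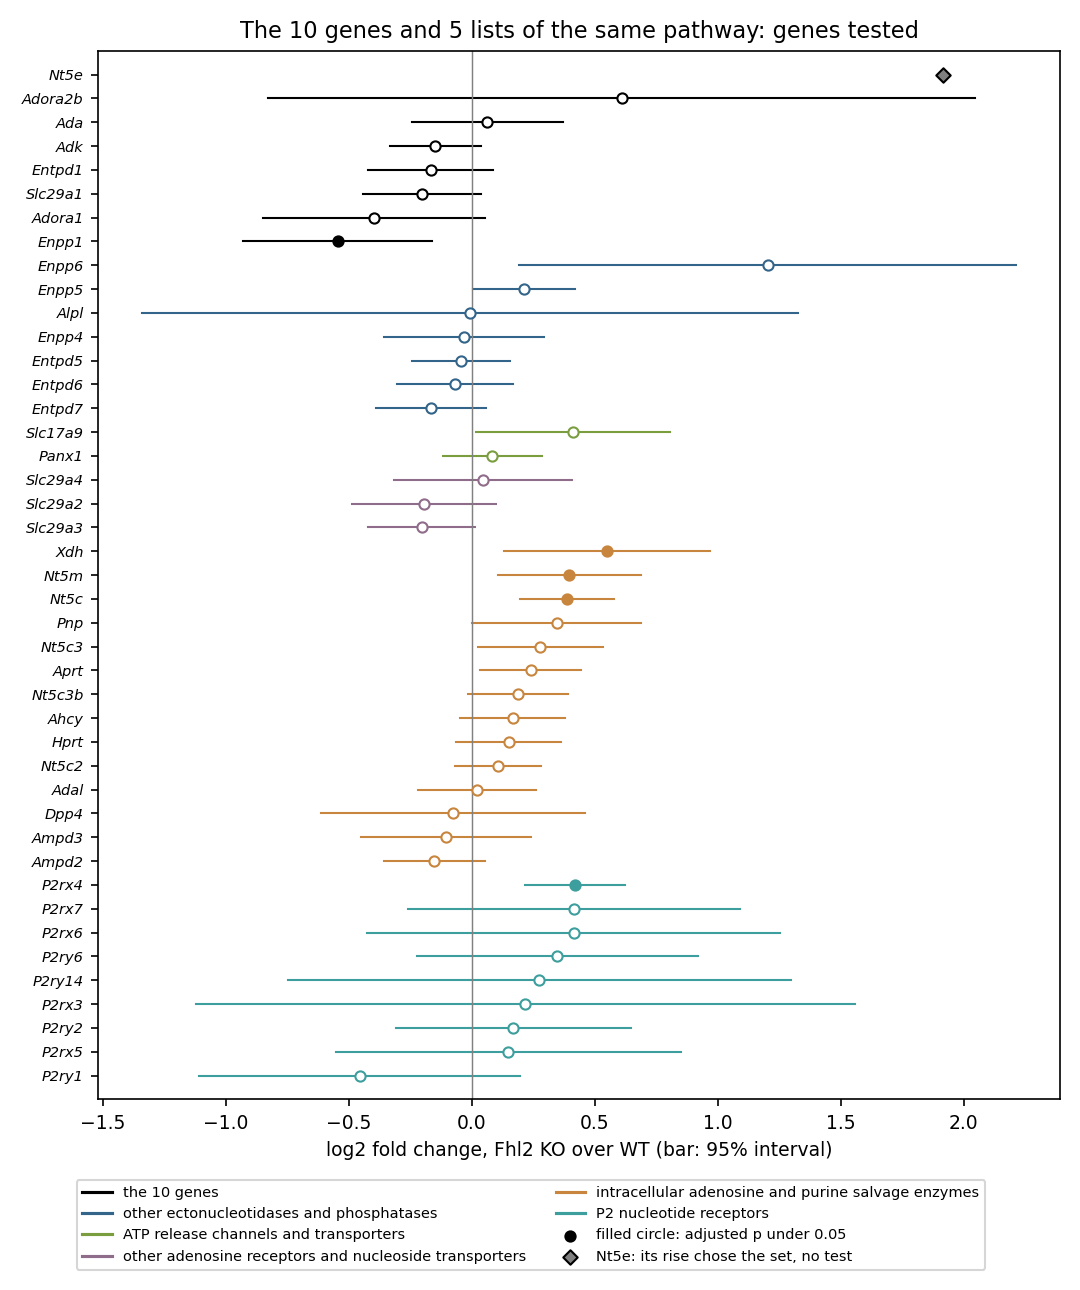
Log2 fold change of KO over WT with its 95% interval for 7 members other than *Nt5e* and the 35 tested genes of 5 lists of the same pathway. *Nt5e* at 1.92 is drawn as a grey diamond without interval or test, and the filled circles are the genes past the threshold, *Enpp1* below 0 and *Xdh*, *Nt5m*, *Nt5c* and *P2rx4* above 0.

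Of 57 further genes of purine release, breakdown, transport and sensing, 35 were tested and 4 passed, all higher in KO, against 13.5% higher and 15.6% lower among all genes tested. Among 13 other ectonucleotidases and phosphatases, 7 were tested and none passed with edgeR (2 at an unadjusted p under 0.05, none with DESeq2 and 1 with limma voom; median -0.03). *Alpl* and *Acpp*, whose phosphatases can also make adenosine from AMP, stood at 0.295 ± 0.267 and 0.0712 ± 0.0944 CPM in WT (SD, n = 4) and at 0.287 ± 0.0281 and 0.0482 ± 0.0512 in KO (SD, n = 3). Of 4 ATP release genes, the 2 tested did not pass with edgeR (1 at an unadjusted p under 0.05, none with DESeq2 or voom). *Panx1*, a channel through which ATP leaves cells, was at 23.2 ± 0.660 and 24.5 ± 2.01 CPM. Of 7 other adenosine receptors and nucleoside transporters, 3 were tested and none passed with edgeR (none at an unadjusted p under 0.05, none with DESeq2 and 1 with voom). After the length and GC correction the pathway genes that passed were *P2rx4*, *Xdh*, *Enpp5*, *Enpp6*, *Nt5c2* and *Panx1*.

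In the list of intracellular adenosine and purine salvage enzymes, which also held the ADA-binding surface protein *Dpp4*, 3 of 14 tested genes rose and none fell (median 0.18; 3 with DESeq2 and 7 with voom). Of all genes, 13.5% rose and 15.6% fell with edgeR, and in either direction 32.1% passed with DESeq2 and 41.3% with voom. *Nt5c*, a cytosolic nucleotidase, had 51.1 to 56.4 CPM in WT and 63.1 to 75.3 in KO, without overlap. Its log2 fold change was 0.39 (SE 0.0912, edgeR adjusted p = 0.00579), and 0.08 after the length and GC correction (edgeR adjusted p = 0.411, range 1.05e-04 to 0.411). *Nt5m*, a mitochondrial nucleotidase, rose by 0.40 (SE 0.138, edgeR adjusted p = 0.0391), with 9.18 to 10.6 CPM in WT and 9.76, 13.3 and 15.1 in KO. *Xdh*, which makes uric acid from the inosine branch, rose by 0.55 (SE 0.199, edgeR adjusted p = 0.0466), with 2.05 to 3.81 CPM in WT and 3.71 to 4.82 in KO. Leaving out WT library 1, WT library 4, KO library 2 or KO library 3 ended both calls. That of *Nt5m* also ended without WT library 3 and that of *Xdh* without WT library 2. The length and GC correction ended the call of *Nt5m* (0.29, edgeR adjusted p = 0.105, range 6.94e-04 to 0.986) and raised the value of *Xdh* (0.95, edgeR adjusted p = 0.00565, range 0.00378 to 0.353). Of 9 tested P2 receptors for nucleotides, 1 rose. This was *P2rx4*, an ATP-gated ion channel gene, with 25.5 to 30.3 CPM in WT and 35.6, 38.9 and 40.2 CPM in KO (0.42, SE 0.0968, edgeR adjusted p = 0.00533). Its call was lost only for KO library 1 alone against WT (0.31, edgeR adjusted p = 0.145, range 3.61e-04 to 0.145).

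The genes around *Nt5e* on chromosome 9, where it lies on the plus strand from 88327197 to 88372092 (mm10), were examined to see whether the difference covered a wider stretch. Of all 10 tested neighbours, 5 on each side, 4 had an unadjusted edgeR p under 0.05. After adjustment 1 was higher, 1 lower and 8 did not pass, against 29.0% of all genes past the threshold. By lower coordinate these genes ran from *Snap91* at -1561.3 kb to *Snhg5* at 193.9 kb from *Nt5e*. Genes beyond that stretch were not examined by position. *Snx14*, whose lower coordinate lies 49.6 kb from that of *Nt5e*, was at 13.9 ± 0.925 CPM in WT and 12.2 ± 1.99 in KO (log2 fold change -0.18, edgeR adjusted p = 0.289). On the other side *Tbx18*, a T-box transcription factor gene, rose, with WT libraries at 2.22 ± 0.461 CPM and KO libraries at 4.64 ± 0.912 CPM (log2 fold change 1.06 with SE 0.201, edgeR adjusted p = 0.00159). It lies at -624.4 kb on the same measure. Its value for KO library 1 alone against WT was 0.70 (edgeR adjusted p = 0.181, range 3.49e-06 to 0.181). *Cep162*, a centrosome protein gene, fell by 0.45 (SE 0.140, edgeR adjusted p = 0.0247) but by 0.07 after the length and GC correction (edgeR adjusted p = 0.673, range 9.42e-04 to 0.691). Leaving out WT library 3 (adjusted p = 0.0936), KO library 2 (0.0895) or KO library 3 (0.140) also ended its call. *Tbx18* and *Cep162* were named after their values were seen.

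**Figure D4:**
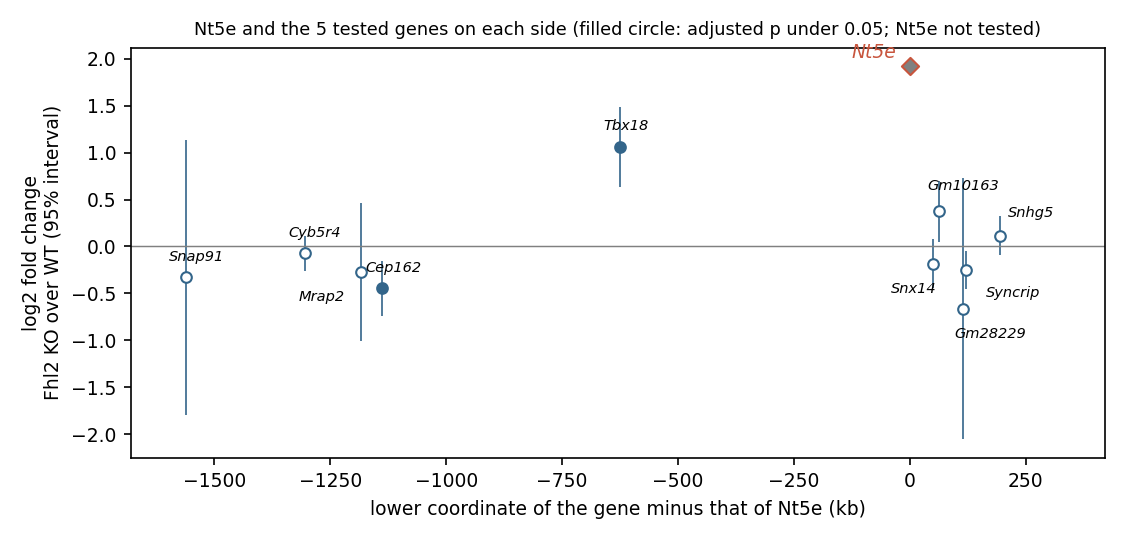
Log2 fold change of KO over WT with its 95% interval for the 5 tested genes on each side of *Nt5e*, drawn as a diamond without interval or test, by the distance between the genes' lower coordinates in kb. *Nt5e* is at 1.92 and *Tbx18* at 1.06, and the other neighbours lie at or below 0.38.

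Across the 7 libraries, the 5 genes whose log2 CPM was most like that of *Nt5e*, of 11647 compared, were *Sgk1*, *Kcnab3*, *Me1*, *Cntnap2* and *Gtf2b*, at Pearson r of 0.992 to 0.997. This likeness rests largely on the difference between groups, and the points share library and depth. With the group means removed, r was 0.824, 0.849, 0.877, 0.611 and 0.487. The positions of these 5 genes were not compared with that of *Nt5e*. *Sgk1*, a kinase gene induced by serum and glucocorticoids, was at 40.7 to 43.4 CPM in WT and 72.6 to 80.1 in KO. *Me1*, the cytosolic malic enzyme that makes NADPH, was at 385.7 to 437.2 CPM in WT and 689.1 to 801.5 in KO. *Kcnab3*, a potassium channel subunit gene, *Cntnap2*, a cell adhesion gene, and *Gtf2b*, a general transcription factor gene, were 1.41-fold, 1.35-fold and 1.39-fold higher. The log2 fold change of *Cntnap2* was 0.43 and, after the length and GC correction, 0.90.

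Markers of other cells that can carry CD73 or CD39 were read in the same libraries. The counts below stand against 13.5% of all genes higher in KO and 15.6% lower. Of 8 stroma and fibroblast markers tested, 6 fell and none rose, and their summed level was 370.8 to 428.5 CPM in WT and 120.9 to 167.3 in KO. Most of that sum came from *Col1a1*, *Col1a2* and *Col3a1*, with means of 72.7, 91.8 and 220.7 CPM in WT and 24.5, 27.9 and 78.2 in KO. *Thy1*, a fibroblast surface marker, fell by 0.70 (SE 0.165, edgeR adjusted p = 0.00571). Endothelial markers summed to 2.65 to 3.63 CPM in WT and 1.76 to 2.83 in KO, with 1 of 5 lower, and *Cldn5* and *Tie1* were at 0 in all WT libraries. Leukocyte markers summed to 21.7 to 23.0 and 20.7 to 25.7 CPM, none of 6 passed with edgeR (none at an unadjusted p under 0.05, nor with DESeq2 or voom), and the T cell gene *Cd3e* had 0 reads in all 7 libraries. Most of the leukocyte sums came from *Lyz2* (means of 12.7 CPM in WT and 13.9 in KO) and *Cd68* (5.49 and 5.19), while *Ptprc* was at 0.159 and 0.183 CPM. Pericyte and smooth muscle markers fell for 4 of 7, with *Rgs5* at 0 throughout. Their sum, 883.5 to 977.7 CPM in WT and 467.6 to 545.3 in KO, was mostly *Acta2*, with means of 882.1 and 490.7 CPM.

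In other lists most tested markers were higher in KO, where 13.5% of all genes were. Surface epithelium markers rose for 5 of 7, with sums of 109.6 to 126.4 CPM in WT and 139.7 to 182.3 in KO. Most of those sums came from *Krt8* (means of 78.4 and 92.8 CPM), which did not pass (edgeR adjusted p = 0.0639), and *Krt18* (33.7 and 51.9 CPM). Luteal markers rose for 6 of 7, with sums of 1028 to 1105 and 2484 to 2733 CPM. Most of those sums came from *Hsd3b1* (means of 504.0 CPM in WT and 1285.6 in KO), *Cyp11a1* (291.5 and 825.6) and *Scarb1* (249.2 and 436.6). The KO means of *Ptgfr*, *Akr1c18* and *Lhcgr* were 0.881, 1.56 and 0.272 CPM, and *Prlr* did not pass (edgeR adjusted p = 0.791). Lung epithelium markers summed to 0.128 to 0.550 CPM in WT and to 11.6, 27.5 and 1.25 CPM in KO libraries 1 to 3, with 2 of 3 higher. The part of any of these lists in the *Nt5e* difference was not tested. Granulosa markers moved both ways (3 of 11 higher, 6 lower), theca markers had 1 of 3 higher and 1 lower, with *Cyp17a1* at no more than 3 reads, and oocyte markers had 1 of 6 lower.

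Which of the members other than *Nt5e* passed depended on the setting, and the share of all genes that passed is given for each. *Enpp1* passed with DESeq2 (32.1% of genes), limma voom (41.3%), median-of-ratios scaling (29.3%), library totals (30.1%), no low-count filter (15.7%), no robust estimation (29.0%), the replicate block (21.1%) and without KO library 1 (41.6%). *Slc29a1* passed in its place with the correction for length and GC (23.7%), for length alone (20.3%) and with the block added to the former (15.7%). None of these members passed with the filter of 10 CPM (44.1%), in the 6 libraries without the block (19.0%) or with KO library 1 alone against WT (4.60%). The same held without WT library 1 (21.0%), 2 (25.8%), 3 (19.2%) or 4 (19.0%) and without KO library 2 (19.5%) or 3 (10.2%). Leaving out WT library 4 is the same fit as the 6 libraries without the block.

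**Figure D5:**
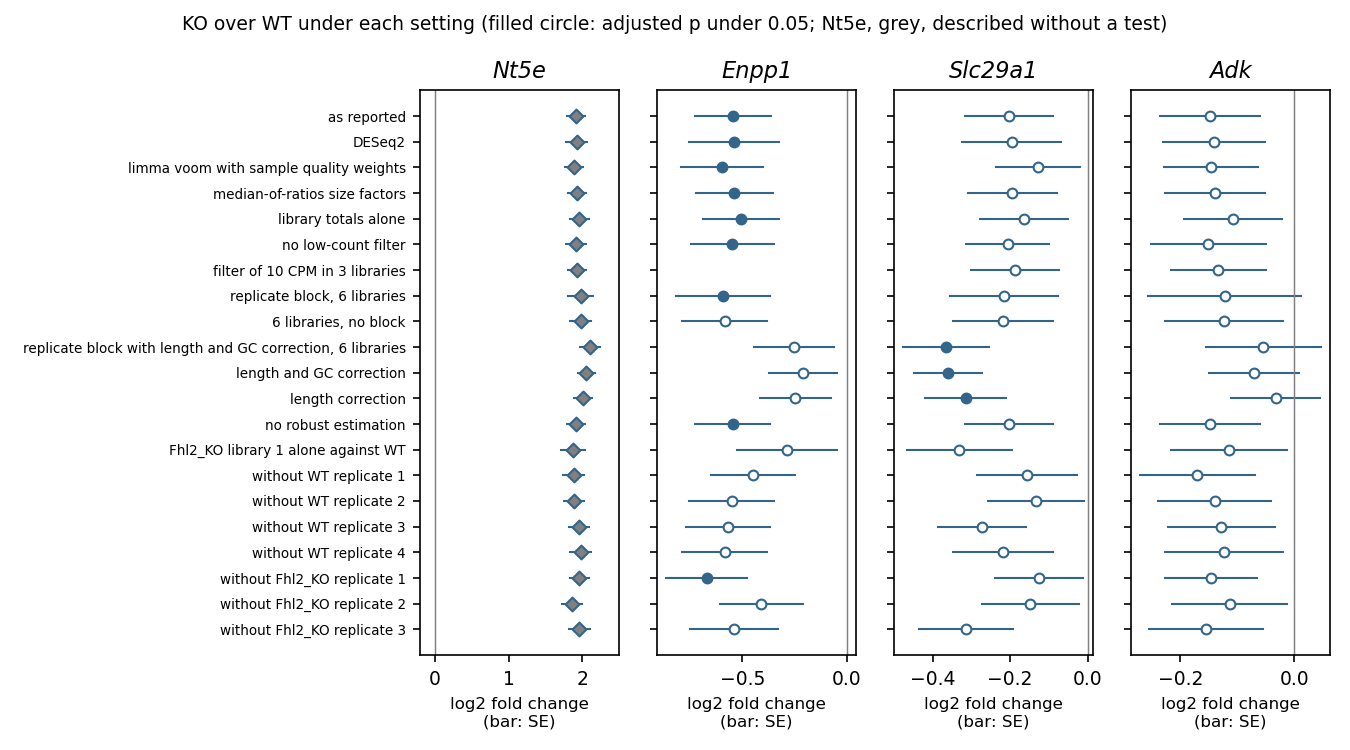
Log2 fold change of KO over WT with its SE under each processing setting for *Nt5e* (grey, without a test), *Enpp1*, *Slc29a1* and *Adk*. *Nt5e* stays between 1.86 and 2.10, *Enpp1* between -0.67 and -0.21, *Slc29a1* between -0.37 and -0.12, and *Adk* between -0.17 and -0.03.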

How the data were processed

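RNA of primary granulosa cells was sequenced in 4 WT and 3 *Fhl2* KO libraries, grouped by their labels. The authors deposited whole-number read counts per gene symbol, not normalized. Build mm10, featureCounts 1.6.4, HISAT2 2.2.1, DESeq2 1.28.1, Cufflinks 2.2.1, SAMtools and fastp are listed per the submitters' processing notes, without their roles. The library kit keeps strand, per the labels' protocols, and the strand setting of the counting is not given in the sources used here. *Adora1* and *Slc29a1* overlap exons of *Mybph* and *Gm17080* on the opposite strand, with 0 and 2 reads in all libraries.

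The test was that of edgeR 4.0.16 under R 4.3.3 (TMM, minimum count of 10 in filterByExpr, robust glmQLFit, glmQLFTest, genotype only), adjusted by the Benjamini-Hochberg method over 15798 genes. The genes left out held 0.0511% of counts. Exon and transcript lengths, GC content and positions came from GENCODE M21 (same build), where 96.8% of rows had a unique symbol and 98.6% of tested genes a length. In the correction, each library's spline trend (4 degrees of freedom) of log2 CPM (prior count 2) on length and GC entered edgeR as an offset. DESeq2 1.42.0, limma 3.58.1 voom, other scalings and filters, the replicate number as a block, and left-out libraries were alternatives. The fits were tested on simulated data with equal dispersion for all genes and no trend with length or GC. That test therefore cannot show how the correction performs where such a trend exists.

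The named genes were the 10 members, genes of 5 pathway lists past adjusted p 0.05 with a mean of at least 1 CPM (up to 6 a list), the 5 genes most like *Nt5e*, and neighbours. The count of members past the threshold leaves *Nt5e* out, although the design as first written counted all 10, because its difference chose the set. Members, lists and corrections were chosen with earlier results of these data known. The replicate numbers gave no sign of pairing, which does not exclude it, and the reported fit did not use them. No library pair of a group held duplicated counts (chi-square per degree of freedom of at least 10.5).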

Additional observations from a re-analysis of the deposited data

Results flagged for a closer look

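Among 21 named genes, 4 had a WT library that stood apart from the other 3 by Dixon's ratio, which chance alone gives in about 1 of 20 groups. The KO group, with 3 libraries, was not examined. *Adora2b* had 0 reads (0 CPM) in WT library 2, which allows up to 0.0598 CPM for counting error only, while the next lowest WT library was at 0.257 CPM. WT library 2 was also the one WT library with reads of *Entpd2* (1 read, 0.0199 CPM) and of *Adora2a* (2 reads, 0.0398 CPM), both under the floor of 3 counts. Where only 1 library has any read, Dixon's ratio is 1 whatever the count. The rate of 1 in 20 therefore does not apply to *Entpd2* and *Adora2a*. *Cntnap2* was at 59.5 CPM in WT library 1, against 63.6 CPM in the nearest other WT library.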

How the results depend on the processing

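The count of members past the threshold with edgeR, *Nt5e* left aside, was 1 as reported (1 also at an unadjusted p under 0.05 and with DESeq2). It was 0 with the filter of 10 CPM, where 2 of them were tested, 0 for the 6 libraries that share replicate numbers without the block, 0 for KO library 1 alone against WT, and 0 to 1 with each library left out. With the length and GC correction it was again 1, with *Slc29a1* in place of *Enpp1*. Over all genes, 4588 passed as reported, 2960 in the 6 libraries without the block, 2409 with the block together with the length and GC correction, 781 for KO library 1 alone, and 1657 to 6740 with each library left out. The pathway count was 4 of 35 tested as reported, where 29.0% of all genes passed. It was 10 with voom quality weights (41.3% of all genes), 2 with the replicate block (21.1%) and 2 without it on the same libraries (19.0%). With each library left out it ran from 2 to 11, where 10.2% to 41.6% of all genes passed. Scaling by library totals gave 2630 genes higher and 2129 lower, against 2128 and 2460 as reported. *Ada* turned to -0.13 under the length and GC correction, -0.15 with the block added, -0.10 under the correction for length alone and lay between -0.020 (without KO library 3) and 0.14 (without KO library 2) with each library left out, and passed in none of these.

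With the replicate block, 3301 genes passed in those 6 libraries. The correlation of deviations between same-numbered libraries was 0.03, -0.00 and -0.03, so the numbers gave no sign of pairing. Depth limits *Adora2b*, *Adora2a* and *Entpd2*, whose reads lie near or under the floor.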

Other observations

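*Slc28a1*, which encodes a concentrative nucleoside transporter and was too low to be tested, had 2, 14, 2 and 4 reads in WT libraries 1 to 4 and 0 reads in each KO library. It was picked after its values were seen, and 3 of the 4 WT values are at or near the floor of 3 counts. *Enpp6*, an ectoenzyme gene that acts on choline phosphodiesters, had 12, 10, 20 and 20 reads in WT and 11, 60 and 38 in KO, so KO library 1 lay within the WT range (log2 fold change 1.20, SE 0.480, edgeR adjusted p = 0.0682). It was likewise picked after its values were seen.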
